A study of Mus musculus with 6 samples.

Results

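Interleukins are secreted signals between cells of the immune system, and each acts through a receptor built from a few chains, many of them shared between ligands. Of 909 genes that could be named on a focused glycan gene array, 73 had a mouse symbol beginning with Il and a digit, and all 73 were taken, with the probe set of the highest mean over the arrays where a gene had several. They comprised 32 ligands, 39 receptor chains and binding proteins, and 2 receptor antagonists, read by 80 of the 1246 probe sets. There were 3 liver samples of wildtype and 3 of diabetic mice, all male, and total RNA of 1 sample was hybridised per array; wildtype livers are labelled healthy. The diabetes is insulin-deficient by the series title, and strain, age and the way insulin was lost are details not stated in the labels. Values are log2 expression values, and each difference is the diabetic mean minus the wildtype mean on that scale, from limma fitted over all probe sets.

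In liver, hepatocytes answer interleukin-6 through Il6ra and the shared chain Il6st (gp130), and interleukin-1 through Il1r1 and its partner Il1rap, with the acute-phase response as the outcome of both. Kupffer cells, the liver's resident macrophages, make many of the ligands, such as interleukin-1β and interleukin-18. Common gamma chain cytokines (interleukins 2, 4, 7, 9, 15 and 21, all using Il2rg) act chiefly on lymphocytes, while interleukins 4 and 13 also reach non-immune cells through a receptor of Il4ra and Il13ra1.

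None of the 73 genes changed by the test: 0 passed a limma adjusted p of 0.05, against 0.321% of all probe sets. Their adjusted p-values lay between 0.928 and 0.998. At an unadjusted p under 0.05 limma gave 3 genes, all with lower diabetic means: Il12rb2, Il1rap and Il13ra2. That was 4.11% of the genes, beside 2.97% of all probe sets in either direction, 1.85% in the higher and 1.12% in the lower one. With the replicate number as a block, Il12rb2 and Il13ra2 had an unadjusted p under 0.05, both lower (2.74%), beside 4.33% of all probe sets in either direction and 1.69% in the lower one. Means were higher in diabetic liver for 34 genes and lower for 39, beside 50.6% and 49.4% of all probe sets. The median difference was -0.0018, beside 0.0031 over the 909 named genes. The groups did not overlap for 9 genes (12.3%), beside 7.87% of all probe sets. Of these, Il4ra, Il10, Il1f6, Il2ra and Il7r lay higher in diabetic liver (background 4.57%), and Il1rap, Il12rb2, Il13ra2 and Il7 lower (background 3.29%).

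Most of these genes read dimly. The mean of 26 of the 73 lay above the median probe set, and the other 47 lay below it. No detection call was used, so no gene was tested against background. The median probe set is a midpoint of this array and not a detection limit. The median size of a difference was 0.11 among the brighter 26 and 0.072 among the dimmer 47. Differences beyond 0.25 in either direction were seen for 2 genes, Il18 at 0.64 and Il12rb2 at -0.26. The 95% confidence interval lay within 0.5 on both sides of 0 for 63 genes, of which 17 were among the brighter 26, and within 1 for 71, the exceptions being Il18 and Il1r1. A narrow interval at a dim probe set does not bound a change of the transcript: Il22ra2, a soluble binding protein for interleukin-22, read between 3.03 and 3.04 on every array, and Il1rapl2, a synaptic relative of Il1rap, read between 3.997 and 3.999 on 4 of 6.

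**Figure D1:**
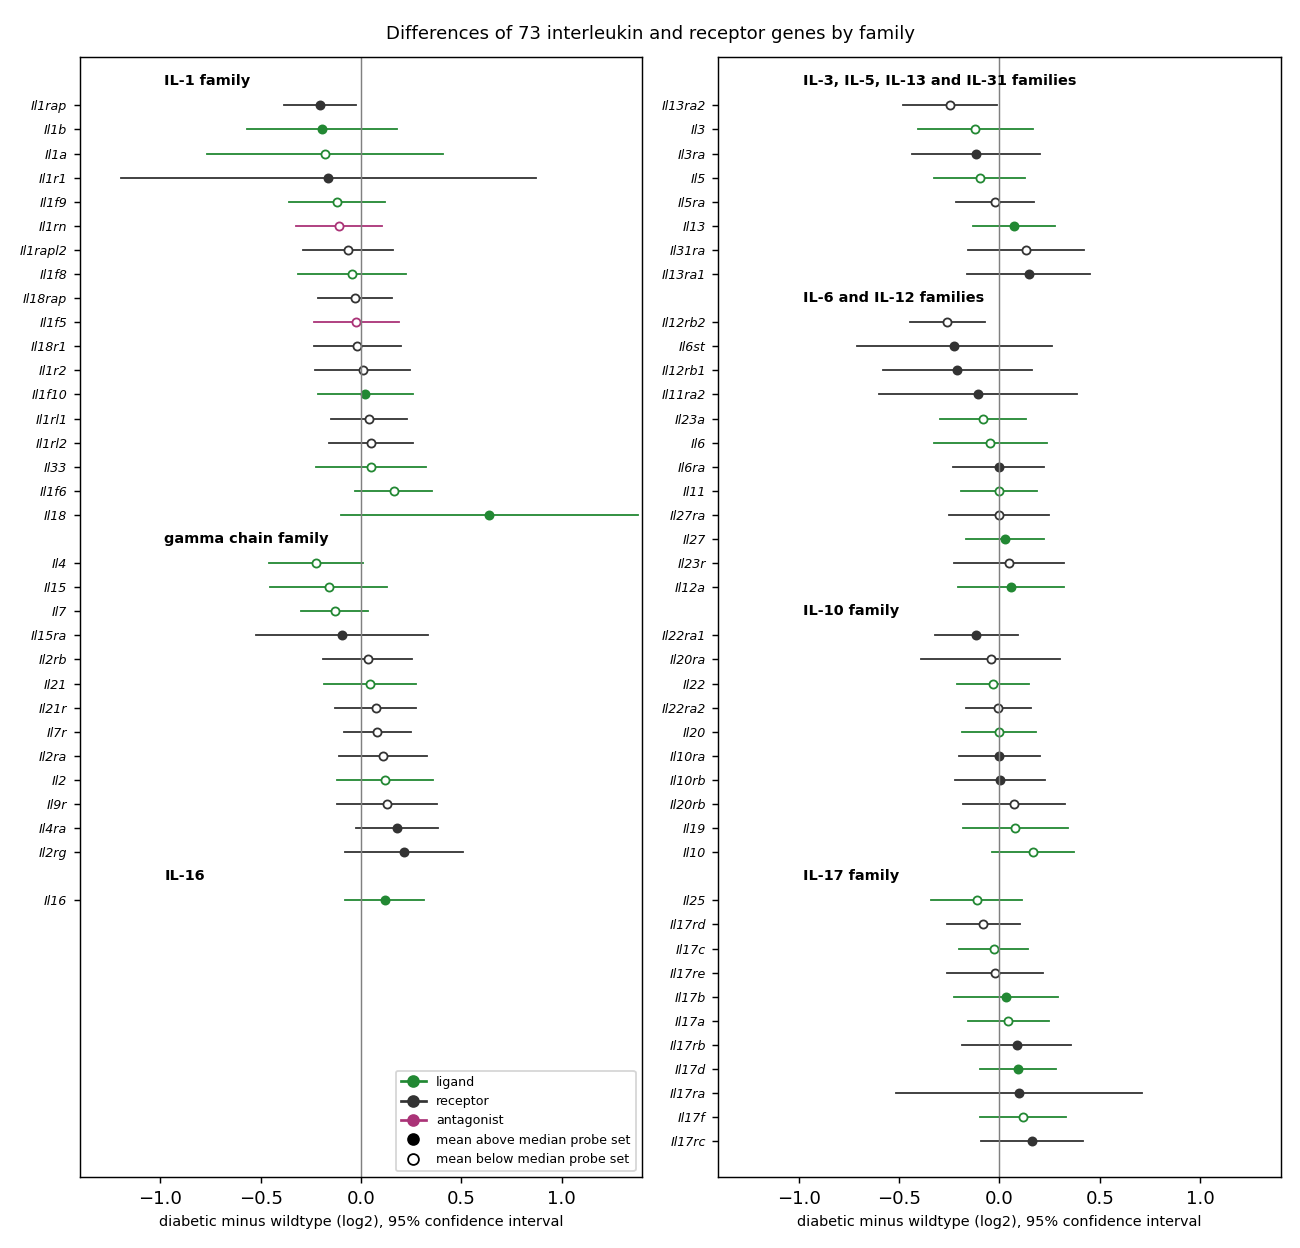
Difference between diabetic and wildtype liver (log2, horizontal axis) for each of the 73 genes, grouped by family, with the 95% confidence interval from limma; colour gives the role, and filled points have a mean above the median probe set. Intervals include 0 for all genes except Il12rb2, Il1rap and Il13ra2, and the widest are those of Il1r1 (-1.20 to 0.87) and Il18 (-0.10 to 1.38).

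**Figure D2:**
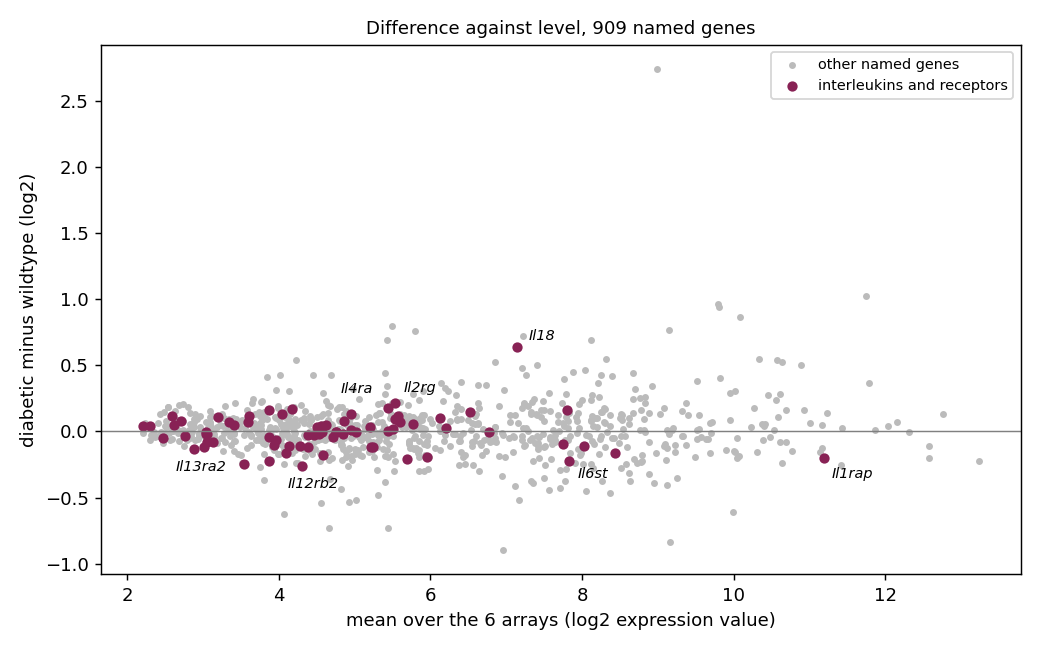
Difference between diabetic and wildtype liver (log2, vertical axis) against the mean over the 6 arrays (log2, horizontal axis) for the 909 named genes, with the 73 interleukin and receptor genes in dark points. The interleukin genes lie between -0.26 and 0.64, within the spread of the other genes, which reaches 2.74; the brightest is Il1rap at 11.19.

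The start regions of the 4 genes whose values are followed most closely are shown because they differ widely in composition: Il12rb2 and Il1rap had the smallest unadjusted p-values, Il18 the largest difference, and Il4ra the smallest p among genes with a higher mean. Each run covers 250 bases before to 50 bases after a RefSeq start in build GRCm38.p6, 5′ to 3′ on the gene's strand, at chr6:67376139-67376438 (minus strand) for Il12rb2, chr16:26581455-26581754 (plus strand) for Il1rap, chr9:50554450-50554749 (plus strand) for Il18 and chr7:125552021-125552320 (plus strand) for Il4ra. Capitals mark matches to a STAT motif (TTCNNNGAA) or to the NF-kB consensus.
Il12rb2: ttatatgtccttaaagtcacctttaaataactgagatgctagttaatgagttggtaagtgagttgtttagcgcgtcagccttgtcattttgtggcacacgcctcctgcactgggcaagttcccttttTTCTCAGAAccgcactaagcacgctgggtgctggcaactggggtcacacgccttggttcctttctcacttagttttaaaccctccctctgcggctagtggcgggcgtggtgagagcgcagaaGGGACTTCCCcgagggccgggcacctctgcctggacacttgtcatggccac
Il1rap: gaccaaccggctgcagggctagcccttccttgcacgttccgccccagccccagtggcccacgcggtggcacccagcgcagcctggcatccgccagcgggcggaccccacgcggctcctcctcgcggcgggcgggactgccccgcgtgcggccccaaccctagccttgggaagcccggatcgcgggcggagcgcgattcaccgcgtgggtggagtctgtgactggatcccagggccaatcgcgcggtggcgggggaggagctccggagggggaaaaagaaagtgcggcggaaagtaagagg
Il18: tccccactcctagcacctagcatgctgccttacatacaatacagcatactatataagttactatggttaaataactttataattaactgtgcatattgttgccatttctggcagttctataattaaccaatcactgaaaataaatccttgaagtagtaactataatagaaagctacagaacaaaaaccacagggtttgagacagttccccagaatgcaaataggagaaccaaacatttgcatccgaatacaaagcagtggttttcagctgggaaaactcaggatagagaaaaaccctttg
Il4ra: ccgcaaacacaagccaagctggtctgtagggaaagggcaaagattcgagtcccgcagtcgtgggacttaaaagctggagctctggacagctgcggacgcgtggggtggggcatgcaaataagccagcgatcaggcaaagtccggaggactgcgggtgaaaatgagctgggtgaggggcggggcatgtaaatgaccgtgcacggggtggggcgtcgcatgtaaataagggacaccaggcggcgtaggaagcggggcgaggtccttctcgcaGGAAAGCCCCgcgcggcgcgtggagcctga
The G and C content was 72.0% for Il1rap, 62.0% for Il4ra, 53.0% for Il12rb2 and 36.7% for Il18, beside a median of 52.7% over all windows of the RefSeq table. Il12rb2 held 1 STAT and 1 NF-kB match, Il4ra held 1 NF-kB match, and Il1rap and Il18 held none. Both strands were searched, and no 2 marked matches overlapped. Of the 73 genes, 58 had 72 windows in the table. The STAT motif occurred in 10 of these 72 (13.9%), beside 8.30% of all 32851 windows and 7.54% of the 875 windows of genes named on the array. The NF-kB consensus was found in 8 (11.1%), beside 8.46% of all windows and 10.4% of those of the array's genes. The forkhead motif GTAAACA was in 4 (5.56%), beside 3.65% and 2.63%. A match is a run of letters, and no binding was measured.

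In the interleukin-1 system, Il1rap was the brightest gene, with a small spread within each group. Il1rap encodes the accessory chain that interleukin-1, interleukin-33 and interleukin-36 receptors all need. With arrays 1, 2 and 3 of a group always given in that order, it read 11.12, 11.10 and 11.05 in diabetic and 11.25, 11.37 and 11.26 in wildtype liver. Every diabetic array lay below every wildtype array. The means were 11.09 ± 0.04 and 11.29 ± 0.06 (SD, n = 3 per group), a difference of -0.20 (95% confidence interval -0.38 to -0.02), which did not pass (limma unadjusted p = 0.0324, adjusted p = 0.928; with the replicate number as a block 0.0523 and 0.822). The difference stayed between -0.23 and -0.17 when any 1 array was left out. A dimmer Il1rap probe set, designed on another RefSeq transcript, gave 4.27, 3.87 and 4.05 against 3.94, 3.83 and 4.33, a difference of 0.03. The gene is known to make membrane-bound and soluble forms, and which form each probe set reads was not tested.

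Il1r1, the signalling receptor chain for interleukin-1, varied far more between arrays than between groups. It read 8.69, 7.61 and 8.79 in diabetic and 9.23, 7.93 and 8.41 in wildtype liver. Both arrays numbered 2 were the lowest of their group, and the groups overlapped. The difference of -0.16 ran from -0.46 without wildtype 2 to 0.21 without diabetic 2. The decoy receptor Il1r2 differed by 0.01.

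The interleukin-1 ligands had lower means without a call. Il1b, the main secreted form, read 5.82, 5.77 and 5.97 against 5.79, 5.99 and 6.36, a difference of -0.19 (limma adjusted p = 0.928). Wildtype 3 was the highest array, and without it the difference was -0.035. Il1a, which also acts from the cell surface and the nucleus, had a difference of -0.18, which was 0.067 without diabetic 1 and -0.45 without diabetic 3. Il1rn, the receptor antagonist, read 3.99, 4.06 and 4.19 against 4.27, 4.11 and 4.19, a difference of -0.11. The groups overlapped for all of these ligands.

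Il18, an inflammatory cytokine activated by caspase-1, had the largest difference of all 73 genes. It read 7.69, 7.49 and 7.23 in diabetic and 7.10, 6.12 and 7.27 in wildtype liver. Wildtype 2 was lower than every other array by about a log2 unit, and wildtype 3 lay above diabetic 3, so the groups overlapped. The diabetic and wildtype means were 7.47 ± 0.23 and 6.83 ± 0.62 (SD, n = 3 per group; limma unadjusted p = 0.0798, adjusted p = 0.928). The difference was 0.29 without wildtype 2 and 0.86 without wildtype 3. Its receptor chains were dim and differed little: Il18r1, the binding chain, read 3.04, 2.99 and 3.06 against 3.09, 3.14 and 2.91, and Il18rap, the accessory chain, differed by -0.03. The members whose array-to-array pattern was most like that of Il18 over the 6 arrays, by Pearson correlation, were Il13 (0.78), Il4ra (0.76) and Il1rl1 (0.72). Without wildtype 2, an omission chosen after seeing the data, these were 0.049, 0.71 and -0.59 over 5 arrays, so the likeness of Il13 and Il1rl1 rested on that array. Over the 6 arrays the strongest correlation of either sign was that of Il15, at -0.98, and -0.88 without wildtype 2. Without wildtype 2 the strongest was instead that of Il1rn, at -0.996, which was -0.29 over the 6 arrays. Il1rl2 likewise moved from 0.38 to 0.90. These are descriptions over few arrays that share 1 normalization.

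The interleukin-33 and interleukin-36 branch was dim. Il1f6 (interleukin-36α) read 3.93, 3.96 and 3.97 against 3.86, 3.83 and 3.68, without overlap, a difference of 0.16 (limma adjusted p = 0.928). The other interleukin-36 agonists Il1f8 and Il1f9 differed by -0.04 and -0.12, their antagonist Il1f5 by -0.02 and their receptor Il1rl2 by 0.05. Il1f10 (interleukin-38), the 1 member of this branch above the median probe set, read 5.36, 5.62 and 5.55 against 5.42, 5.48 and 5.57. Il33, an alarm signal released from damaged cells, and its receptor Il1rl1 differed by 0.05 and 0.04. The genes Il1r2, Il1r1, Il1rl2, Il1rl1, Il18r1 and Il18rap are neighbours in the RefSeq table with no other protein-coding gene between them, and 3 of these 6 had higher and 3 lower means.

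**Figure D3:**
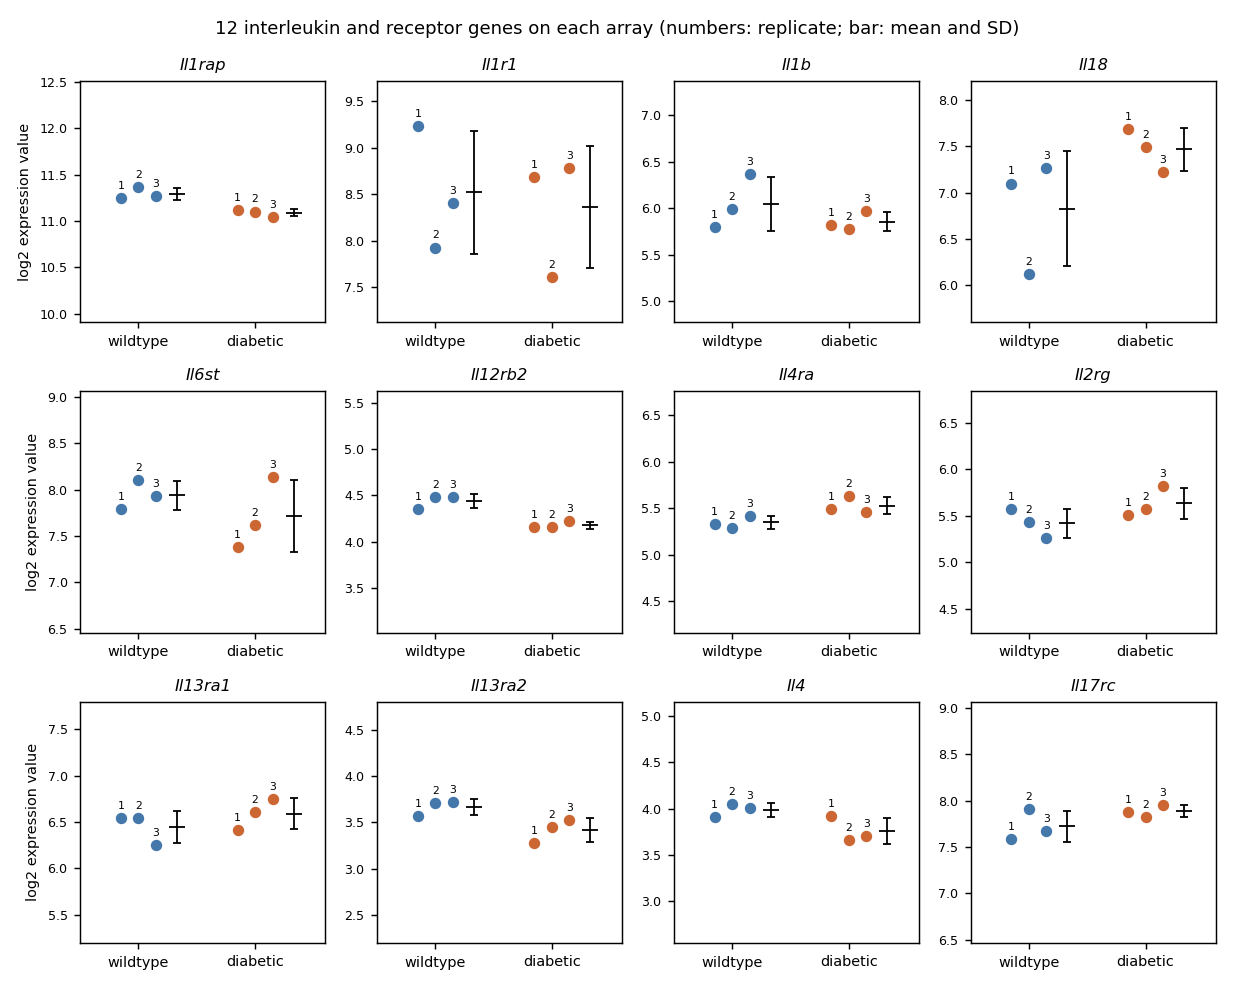
Log2 expression value on each array for 12 of the genes, with the replicate number above each point and the group mean with its SD at the right of each group; all panels span the same 2.6 log2 units. Il1rap and Il12rb2 show narrow groups set apart by 0.20 and 0.26, whereas Il1r1 and Il18 spread over more than a log2 unit.

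Among receptors of interleukin-6 and related ligands, Il6st and the 2 interleukin-12 receptor chains had the lower means of larger size. Il6st (gp130), the signal-transducing chain shared by interleukins 6, 11 and 27, read 7.38, 7.62 and 8.14 in diabetic and 7.79, 8.10 and 7.93 in wildtype liver. Diabetic 1 was lowest and diabetic 3 highest, so the wildtype arrays lay inside the diabetic range. The difference was -0.23 (95% confidence interval -0.71 to 0.26), at -0.059 without diabetic 1 and -0.44 without diabetic 3. Il6ra, the chain that binds interleukin-6, read 6.62, 6.83 and 6.85 against 6.69, 6.80 and 6.83. The Il6ra difference was -0.0030 (95% confidence interval -0.23 to 0.22). Its 2 other probe sets were dimmer, at means of 5.88 and 3.92 against 6.77, and gave 0.02 and 0.07. Whether the chosen probe set, which has an x suffix, reads Il6ra alone was not tested. Il6 itself read 2.65, 2.47 and 2.23 against 2.46, 2.51 and 2.51, near the bottom of the array's range.

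Il12rb2, the chain of the interleukin-12 receptor that activates STAT4 in lymphocytes, had the smallest unadjusted p of the 73 genes. It read 4.16, 4.16 and 4.22 in diabetic and 4.35, 4.49 and 4.49 in wildtype liver. The groups were apart, at 4.18 ± 0.04 and 4.44 ± 0.08 (SD, n = 3 per group). The difference was -0.26 (95% confidence interval -0.45 to -0.07; limma unadjusted p = 0.0137, adjusted p = 0.928), and it ran from -0.31 to -0.24 when 1 array was left out. The probe set lay below the median probe set. Its partner Il12rb1 read 5.57, 5.73 and 5.45 against 6.02, 5.49 and 5.86, with overlap, a difference of -0.21 that was -0.36 without wildtype 2 and -0.095 without wildtype 1. Il12a, a subunit of interleukin-12, read 5.65, 5.80 and 5.94 against 5.61, 5.76 and 5.86. In both groups array 1 was lowest and array 3 highest for Il12a, and the difference was 0.06.

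Of the other members of this family, 0 stood apart. Il27 encodes a subunit of interleukin-27 and read 6.11, 6.24 and 6.30 against 6.15, 6.21 and 6.20. The probe set named Il11ra2 read 8.10, 7.94 and 7.86 against 8.12, 8.46 and 7.65, a difference of -0.11 that was 0.083 without wildtype 2. Its suffix marks a match to several transcripts, and the mouse genome holds a close relative, Il11ra1, so the signal may belong to either gene. Il11, Il23a, Il23r and Il27ra lay between -0.08 and 0.05. In all, 9 of the 12 members of the interleukin-6 and interleukin-12 families had lower means, beside 49.4% of all probe sets. Their median difference was -0.02.

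In the common gamma chain family, 7 of 8 receptor chains had higher means in diabetic liver, beside 50.6% of all probe sets. Of these 8 chains 0 passed, 3 lay above the median probe set, and the median difference was 0.10. The 5 ligands had 2 higher and 3 lower means, with a median difference of -0.13. Il4ra, which binds interleukins 4 and 13, read 5.50, 5.63 and 5.46 against 5.33, 5.29 and 5.42, with all diabetic arrays above all wildtype arrays. Its means were 5.53 ± 0.09 and 5.35 ± 0.07 (SD, n = 3 per group), a difference of 0.18 (95% confidence interval -0.02 to 0.38; limma unadjusted p = 0.0732, adjusted p = 0.928), which stayed between 0.13 and 0.22 when 1 array was left out. Il2rg, the common gamma chain, read 5.51, 5.57 and 5.82 against 5.57, 5.43 and 5.26, a difference of 0.22 with overlap that was 0.12 without diabetic 3 and 0.29 without wildtype 1. Il15ra, which presents interleukin-15 to neighbouring cells, was the exception. It read 7.61, 7.44 and 8.04 against 7.57, 7.90 and 7.90, a difference of -0.09, and its dimmer probe set gave -0.11.

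The remaining gamma chain receptors were dim. Il2ra and Il7r, the high-affinity chain for interleukin-2 and the interleukin-7 receptor, did not overlap between groups, at differences of 0.11 and 0.08. For Il2ra the lowest diabetic array, at 3.178, lay just above the highest wildtype array, at 3.170. The Il2ra difference was 0.036 without diabetic 1, while that of Il7r ran from 0.064 to 0.093 when 1 array was left out. Il9r, Il21r and Il2rb differed by 0.13, 0.07 and 0.03. Among the ligands, Il4, the main type 2 signal, read 3.918, 3.659 and 3.708 against 3.906, 4.049 and 4.004, where diabetic 1 lay just above wildtype 1. The Il4 difference was -0.22 (limma unadjusted p = 0.0572, adjusted p = 0.928). Il7, a survival signal for lymphocytes, read 2.80, 2.79 and 2.85 against 2.94, 2.96 and 2.94, apart but near the bottom of the range, a difference of -0.13. Il15, which sustains natural killer cells, read 3.934, 4.028 and 4.073 against 4.108, 4.408 and 4.002, a difference of -0.16 that was -0.044 without wildtype 2. The last 2 ligands, Il2 and Il21, differed by 0.12 and 0.04.

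Neither receptor chain for interleukin-13 passed the test. Il13ra1, the partner of Il4ra on non-immune cells, read 6.41, 6.61 and 6.75 in diabetic and 6.54, 6.54 and 6.25 in wildtype liver, a difference of 0.15 with overlap (0.047 without wildtype 3). Il13ra2, a decoy receptor for interleukin-13, read 3.28, 3.45 and 3.53 against 3.57, 3.71 and 3.72, with no overlap. Its means were 3.42 ± 0.13 and 3.67 ± 0.09 (SD, n = 3 per group), and the difference of -0.25 (95% confidence interval -0.48 to -0.01) had a limma unadjusted p of 0.0411 and an adjusted p of 0.928. Its probe set lay well below the median probe set. Il13 itself read 5.59, 5.72 and 5.61 against 5.64, 5.46 and 5.60, a difference of 0.07. Il3ra, the interleukin-3 binding chain, read 5.13, 5.16 and 5.25 against 5.33, 5.52 and 5.04, a difference of -0.12 that was -0.0068 without wildtype 2. Il3, Il5, Il5ra and Il31ra lay between -0.12 and 0.13.

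Interleukin-10 family members differed little. Il10, an anti-inflammatory cytokine, read 4.15, 4.24 and 4.37 in diabetic and 4.11, 4.10 and 4.06 in wildtype liver, apart but dim, a difference of 0.17 (limma unadjusted p = 0.0901, adjusted p = 0.928). Its receptor chains did not follow: Il10ra read 5.05, 5.04 and 4.98 against 4.91, 5.13 and 5.03, and Il10rb, which also serves interleukin-22, read 5.39, 5.47 and 5.48 against 5.50, 5.29 and 5.54. Both differed by less than 0.005, with 95% confidence intervals of -0.20 to 0.20 and -0.22 to 0.23. Il22ra1, which makes hepatocytes responsive to interleukin-22, read 5.25, 5.11 and 5.13 against 5.19, 5.28 and 5.37, a difference of -0.12 with overlap. Il19, Il20, Il22, Il20ra, Il20rb and Il22ra2 lay between -0.04 and 0.08.

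In the interleukin-17 family, 7 of 11 genes had higher and 4 lower means, beside 50.6% higher among all probe sets. Il17rc, a chain of the interleukin-17A receptor, read 7.88, 7.83 and 7.95 against 7.58, 7.91 and 7.67, a difference of 0.16 in which wildtype 2 lay among the diabetic arrays (0.26 without it). Il17ra, the chain shared across the family, read 5.97, 5.90 and 6.65 against 6.46, 5.83 and 5.92, and its difference of 0.10 turned to -0.14 without diabetic 3. Il17rb, which binds interleukin-25, read 5.54, 5.69 and 5.61 against 5.43, 5.74 and 5.41, a difference of 0.08. Il17rd differed by -0.08. Il17re differed by -0.02 on the chosen probe set and by -0.19 on the other, which was nearly as bright (limma adjusted p = 0.928 for the latter).

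Interleukin-17 ligands were mostly dim. Il17b read 5.08, 5.41 and 5.17 against 5.27, 5.16 and 5.13, and Il17d read 5.51, 5.66 and 5.56 against 5.50, 5.53 and 5.43, a difference of 0.09. Il17a and Il17f, the products of T helper 17 cells, differed by 0.04 and 0.12, and Il17c and Il25 by -0.03 and -0.11. Outside the families, Il16, a chemoattractant for CD4+ cells, read 5.60, 5.68 and 5.63 against 5.50, 5.62 and 5.43, a difference of 0.12 with overlap at wildtype 2.

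**Figure D4:**
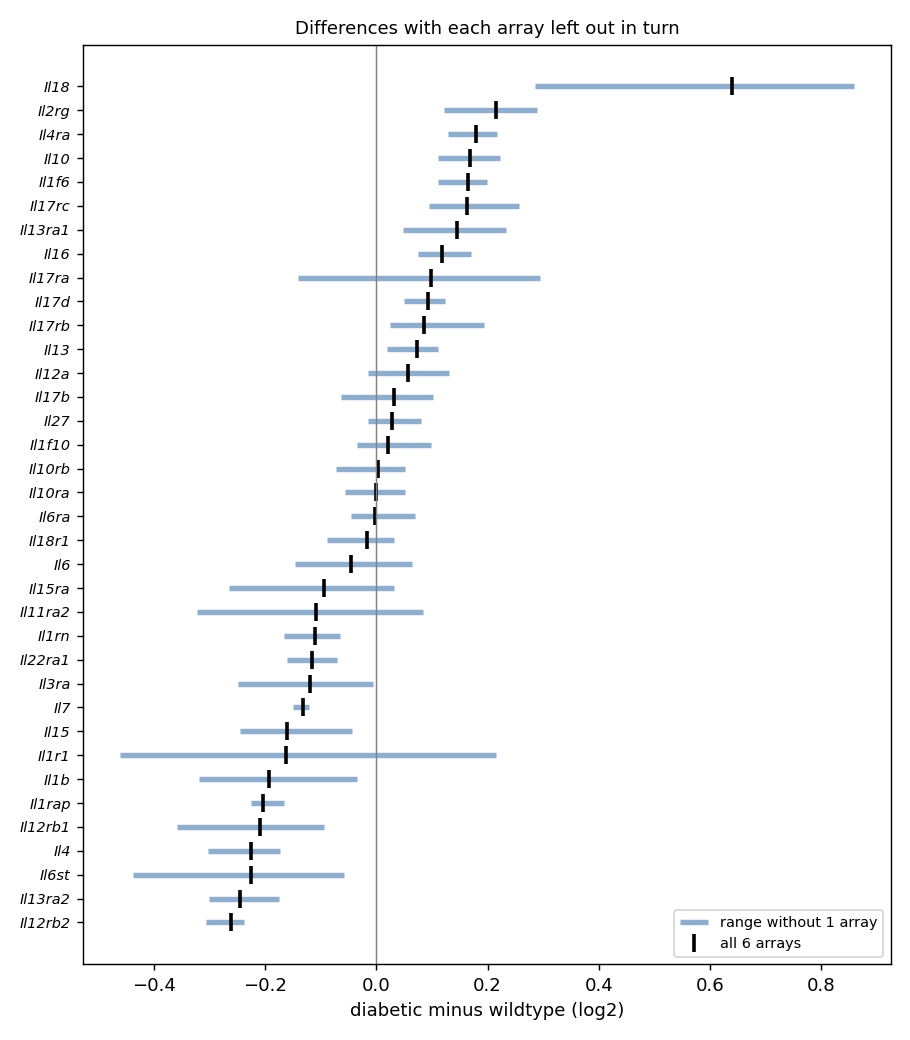
Difference between diabetic and wildtype liver (log2, horizontal axis) for 36 genes, with all 6 arrays (black tick) and as the range when each array was left out in turn (blue bar). Il1rap, Il12rb2, Il13ra2, Il4ra and Il7 keep narrow ranges on 1 side of 0, whereas Il1r1 runs from -0.46 to 0.21 and Il17ra from -0.14 to 0.29.

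Single arrays set the size of many of these differences. Among the 31 genes whose difference reached 0.1 either way, 28 kept 1 sign whichever array was left out, and for 24 the value changed by over 1.5 times or crossed 0. Diabetic 3 was the highest of the 6 arrays for 19 of the 73 genes and the lowest for 6, while diabetic 1 and wildtype 3 were each the lowest for 19.

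Related signalling genes outside the symbol rule gave 0 calls among 15 measured of 111 listed, by limma with or without the replicate block, and 0 at an unadjusted p under 0.05. Their median difference was 0.06, with 10 higher and 5 lower means. Of 9 measured colony-stimulating factor and gp130 relatives, Csf1, the macrophage growth factor, was 7.16 ± 0.41 against 7.55 ± 0.13 (SD, n = 3 per group), Cntfr, which pairs with gp130, 6.49 ± 0.10 against 6.32 ± 0.13, and Csf2ra 4.49 ± 0.16 against 4.85 ± 0.49. Of 6 interferon genes, the smallest p-values belonged to the receptor chains Ifngr1, Ifnar1 and Ifnar2, at differences of -0.19, 0.15 and 0.33. Of the listed JAK, STAT and SOCS genes, interleukin-1 and Toll receptor signalling genes and acute-phase genes, 0 were among the named genes.

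In these bulk samples, fewer cells of a type and less RNA per cell cannot be told apart. Asgr1, the hepatocyte asialoglycoprotein receptor, read 12.32 ± 0.04 in diabetic and 12.32 ± 0.14 in wildtype liver, and of 6 measured hepatocyte markers of 10 listed, 3 had higher and 3 lower means. Mbl2, a secreted lectin, was the 1 called, at 12.25 against 11.23 (difference 1.03, limma adjusted p = 0.0412, and 0.142 with the replicate block). Igfals, a carrier of insulin-like growth factors, had lower values on every diabetic array, at 9.68 against 10.29 (difference -0.61, limma adjusted p = 0.928), while Mbl1 differed by 0.27 and Asgr2 by 0.02. The log2 of the summed linear values of these 6 ran from 13.66 to 13.71 in diabetic and from 13.25 to 13.52 in wildtype liver; of the 2 brightest, Mbl2 differed as above and Asgr1 by -0.0033. Of 14 listed Kupffer cell or macrophage markers 6 were measured and 0 passed, and their summed level ran from 8.50 to 9.29 in diabetic and from 8.68 to 9.25 in wildtype liver. Csf1r and Adgre1, macrophage surface markers, were highest on diabetic 3, at 7.50 and 5.18, against 6.23 to 6.85 and 3.81 to 4.32 on the other arrays. Cd74, an antigen presentation gene, was instead highest on wildtype 3, at 7.94 against 7.31 on diabetic 3 (difference -0.41), and Clec4f, a Kupffer cell lectin, was highest on diabetic 2, at 6.07 against 6.03 on diabetic 3. Diabetic 3 was also the highest array for 19 of the 73 genes, among them Il17ra, Il6st, Il1a and Il2rg. The next highest array was wildtype 1 for Il17ra (6.46 against 6.65) and wildtype 2 for Il6st (8.10 against 8.14). It was wildtype 3 for Il1a (4.71 against 5.03) and diabetic 2 for Il2rg (5.57 against 5.82). The part of macrophage content in these values was not tested. Lymphocytes were covered by 1 of 10 listed T cell markers (Cd2, difference -0.18), 4 of 8 natural killer cell markers, all below the median probe set, and 2 of 7 B cell markers, with 0 called. Klrd1 differed by 0.10 and Fcer2a by -0.13. Cd2 ran from 5.20 to 5.44 in diabetic and from 5.26 to 5.71 in wildtype liver, and the summed natural killer cell markers from 5.53 to 5.60 and from 5.43 to 5.56. The B cell markers summed to between 6.05 and 6.37 and between 6.12 and 6.33. The part of lymphocyte content in the values of Il12rb2, Il2rg and Il7r was not tested. Neutrophil, endothelial and stellate cell markers, 2, 4 and 3 measured, also had 0 calls, with differences of -0.29 for Cxcr2, -0.30 for Selp, -0.22 for Icam2, 0.02 for Pecam1, -0.38 for Pdgfrb and -0.21 for Dcn.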

How the data were processed

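The deposited log2 values were made by the authors with RMA, per the submitters' processing notes; the RMA version is unstated. The values ran from 2.03 to 13.45, with array medians of 4.93 to 5.06, and were taken as log2 from that range. RMA equalizes arrays, which would hide a shift of the array as a whole. Of 1246 probe sets, 984 carried a RefSeq accession and 963 were named, as 909 genes, through a RefSeq gene table of GRCm38.p6. An s suffix is carried by the chosen probe sets of Il7, Il10rb, Il11ra2, Il13ra1, Il17rb, Il17re, Il1f5, Il1rl1 and Il20rb. Those of Il6ra and Il21r carry an x suffix. Whether these probe sets read the named gene alone was not tested. Promoter sequences are RefSeq's, same build.

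The groups were compared with limma 3.58.1 (lmFit, eBayes) in R 4.3.3 on all probe sets, with Benjamini-Hochberg adjustment over all of them, 4 residual and 2.44 prior degrees of freedom, and a threshold of 0.05. The script was tested on simulated data. The number of arrays limits the precision. The design text speaks of 3 diabetic mice and does not say whether the 3 wildtype samples are separate animals; if not, p-values measure only the spread between these samples. Over all probe sets, deviations from group means correlated at 0.397, 0.138 and 0.162 for arrays numbered 1, 2 and 3. All were over 0.1, so the number was also fitted as a block. Over the 73 genes alone the correlations were 0.255, 0.241 and -0.141. Members, roles, gene lists and promoter motifs were chosen with earlier results of these data known. Values on every array are given for members above the median probe set, the 5 smallest p per direction and 17 measured of 18 set genes; related and marker lists name up to 3 by p and a few set markers; Asgr2 and Clec4f were added after their values were seen, and 1 marker is not reported here. The planned protein comparison was not made, since no protein sequences were used here.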

Additional observations from a re-analysis of the deposited data

How the results depend on the processing

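The count of called interleukin and receptor genes was 0, higher and lower alike, under each alternative run: equal array medians, quantile normalization, leaving out the dimmest 25% of probe sets (50 of the 73 genes left), eBayes with trend and robust, array weights, the replicate block, an ordinary linear model, an adjusted p threshold of 0.10, leaving out probe sets with an s or x suffix (65 genes left), all 80 probe sets, and leaving out each array. The same held for the 15 related genes in the alternatives run for them. Limma's unadjusted p fell under 0.05 for 3 genes without the replicate block and for 2 with it, Il12rb2 and Il13ra2. With the replicate block the lowest limma adjusted p of the 73 genes was 0.822, and the block changed none of their calls. Over all 1246 probe sets, 4 passed without the block and 0 with it. The lowest limma adjusted p of any of the 73 genes was 0.701, without wildtype 1. That minimum does not cover the ordinary linear model or the run without s and x suffixes, for which only calls were counted. The median difference over members, -0.0018, ran from -0.014 without diabetic 3 to 0.027 without diabetic 1, the 1 move beyond the spread between arrays, whose cause was not tested; in the other alternatives it lay between -0.0022 and 0.0052. Without 1 array, 7 to 13 of the 73 differences changed sign, and 6 did with equal array medians, none of them called. No detection call was used, so no gene was tested against background, which matters most for the 47 dimmer ones.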
